A study of Homo sapiens with 2 samples.

Results

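A set of 9 genes of the MHC class I pathway was examined after cisplatin in cells with and without FZR1. They were chosen by name, as the rows of the expression table whose Entrez gene ID maps to HLA-B, HLA-C, HLA-E, HLA-F, B2M, TAP1, TAP2, TAPBP or NLRC5. All 9 were found among the 23033 genes with a value. The rule holds names and no measured level, but the set was chosen with earlier results of these data known. Total RNA was sequenced on the BGISEQ-500 platform with 1 library for each condition. The labels give T-47D, a luminal breast cancer cell line, for both, and both received cisplatin, a DNA crosslinking drug, at 2 µg/mL. The control is labelled WT, and the other library carries the knockout of FZR1, a coactivator of the anaphase promoting complex. The knockout line was made with CRISPR/Cas9 and screened from single cells, so it is 1 clone, and cells without cisplatin were not analysed here. With 1 library per condition no difference has a replicate check, and no p-value is given.

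MHC class I molecules show peptides from inside the cell to CD8 T cells. A heavy chain, such as HLA-B, folds in the endoplasmic reticulum with the light chain beta-2 microglobulin, encoded by B2M. The proteasome cuts proteins into peptides, the transporter of TAP1 and TAP2 carries these into the endoplasmic reticulum, and tapasin, encoded by TAPBP, holds the empty molecule at the transporter until a peptide fits. NLRC5 is the transactivator that acts on class I promoters, and interferon gamma induces most genes of the pathway through IRF1. The surface of tumour cells can lose class I when any of these steps fails.

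Levels are in FPKM, fragments per kilobase of transcript scaled to the number of mapped fragments, as deposited. Differences are log2 ratios of FPKM + 1, FZR1 ko over control, a scale that understates the change of low genes. They are read beside the 13554 genes that reached 1 FPKM in 1 library or both, whose median log2 ratio was -0.0048. All 9 genes had at least 1 FPKM in both libraries. The file holds no counts, and the number of reads under a value is unknown. FZR1 itself, on chromosome 19, had 12.3 FPKM in control cells and 10.1 FPKM in FZR1 ko cells, a log2 ratio of -0.26, and since mRNA can persist after an indel knockout this level is no check of the label. Of 8 luminal markers 5 were under 1 FPKM in both libraries, against the label, among them ESR1 at 0.04 and 0.13 FPKM, while the keratins KRT8 and KRT18 had 829 and 998 FPKM and 552 and 740 FPKM. FOXA1, a luminal transcription factor, had 5.07 and 4.65 FPKM. In bulk RNA, fewer cells of a kind and less RNA per cell cannot be told apart.

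Promoter sequences from RefSeq (GRCh38.p14) were used for 7 of the 9 genes, and the promoters of HLA-E and NLRC5 were not analysed here. The 250 bases before the start site of 4 of them, and of PSMB9, are printed 5′ to 3′ on the strand of the gene. Capitals mark matches on either strand to the interferon response element (ISRE, GAAA and GAAA with any 2 bases between), the interferon gamma site (GAS, TTCNNNGAA), the kappa-B site (GGGA, any base, TT, any base, CC), the Y box (CCAAT) and the CRE core site (TGACG). They also mark a shorter ISRE (GAANNGAAA) and the enhancer A core (GGGGATTC), both chosen after the HLA promoters had been seen. Matches can overlap. HLA-B and HLA-C are shown as a pair of near copies, B2M as the gene with the largest difference, and TAP1 with PSMB9 as neighbours that start from 1 stretch of DNA in opposite directions.
HLA-B, chr6:31357180-31357429, minus strand: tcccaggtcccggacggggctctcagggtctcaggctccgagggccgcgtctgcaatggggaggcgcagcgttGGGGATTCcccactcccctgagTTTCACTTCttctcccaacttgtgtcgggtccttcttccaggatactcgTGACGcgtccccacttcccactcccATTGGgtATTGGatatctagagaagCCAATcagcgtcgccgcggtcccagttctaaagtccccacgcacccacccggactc
HLA-C, chr6:31272093-31272342, minus strand: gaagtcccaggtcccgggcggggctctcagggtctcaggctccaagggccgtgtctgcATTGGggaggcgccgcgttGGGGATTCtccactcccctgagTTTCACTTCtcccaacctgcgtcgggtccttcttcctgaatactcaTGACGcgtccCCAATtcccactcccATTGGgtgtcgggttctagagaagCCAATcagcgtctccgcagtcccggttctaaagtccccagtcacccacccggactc
B2M, chr15:44711267-44711516, plus strand: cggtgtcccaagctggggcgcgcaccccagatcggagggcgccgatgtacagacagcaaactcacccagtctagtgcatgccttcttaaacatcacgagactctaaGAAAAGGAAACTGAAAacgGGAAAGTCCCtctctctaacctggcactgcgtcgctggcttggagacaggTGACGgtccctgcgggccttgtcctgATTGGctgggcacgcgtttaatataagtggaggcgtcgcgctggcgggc
TAP1, chr6:32853705-32853954, minus strand: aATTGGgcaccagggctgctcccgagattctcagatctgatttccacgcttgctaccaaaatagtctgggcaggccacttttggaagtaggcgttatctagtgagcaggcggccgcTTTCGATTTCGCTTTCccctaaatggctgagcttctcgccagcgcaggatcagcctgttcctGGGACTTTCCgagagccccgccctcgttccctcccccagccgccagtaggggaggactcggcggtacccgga
PSMB9, chr6:32853942-32854191, plus strand: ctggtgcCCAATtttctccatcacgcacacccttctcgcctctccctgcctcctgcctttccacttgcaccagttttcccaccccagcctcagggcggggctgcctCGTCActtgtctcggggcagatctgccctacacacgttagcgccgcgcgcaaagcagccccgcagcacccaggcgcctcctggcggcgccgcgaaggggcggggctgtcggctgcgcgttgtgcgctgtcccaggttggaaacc

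The ISRE was found before 5 of the 7 genes, HLA-F, B2M, TAP1, TAP2 and TAPBP, and in 3.02% of the 35116 promoter windows in the table. A gene is counted when any of its windows matched, whereas each share is over single windows, so these differ in unit. B2M held overlapping copies that begin 144 and 138 bases before the start site, a kappa-B match at 125 bases, a CRE core site at 75 bases and a Y box at 49 bases. TAP1 held overlapping ISRE copies at 134 and 128 bases and a kappa-B match at 72 bases, in 1 of its 2 windows. The kappa-B letters stood before these 2 genes and in 1.26% of all windows. HLA-B and HLA-C held the enhancer A core (0.772% of windows), the shorter ISRE (6.56%), a CRE core site (21.2%) and several Y boxes (32.0%) in the same order, apart from a Y box of HLA-C at 192 bases, ahead of the rest. Their windows matched at 226 of 246 aligned bases (91.9%), whereas HLA-B and HLA-F matched at 83.7%. Of the 7 genes TAP1 alone held the GAS letters, in its other window, against 6.57% of all windows. These are matches of letters and not shown sites of binding.

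Of the 9 genes 8 had the lower level in FZR1 ko, and the transactivator NLRC5 alone had the higher level. Among all genes kept 50.3% were lower and 49.6% higher in FZR1 ko. The median log2 ratio of the 9 genes was -0.66. At a 2-fold threshold 2 of the 9, B2M and HLA-E, were lower and 0 were higher, beside 6.72% and 6.78% of all genes kept. At 1.5-fold 5 were lower (17.6% of all genes kept) and 1 was higher (18% of all genes kept). Since 8 of the 9 were at 10 FPKM or more in both libraries, genes of that level were looked at as well, a choice made after the data were seen. Of these 5938 genes, 4.24% were at least 2-fold lower and 2.43% at least 2-fold higher. At 1.5-fold the shares were 15.2% and 10.3%, and 53.6% were lower and 46.3% higher at all.

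**Figure D1:**
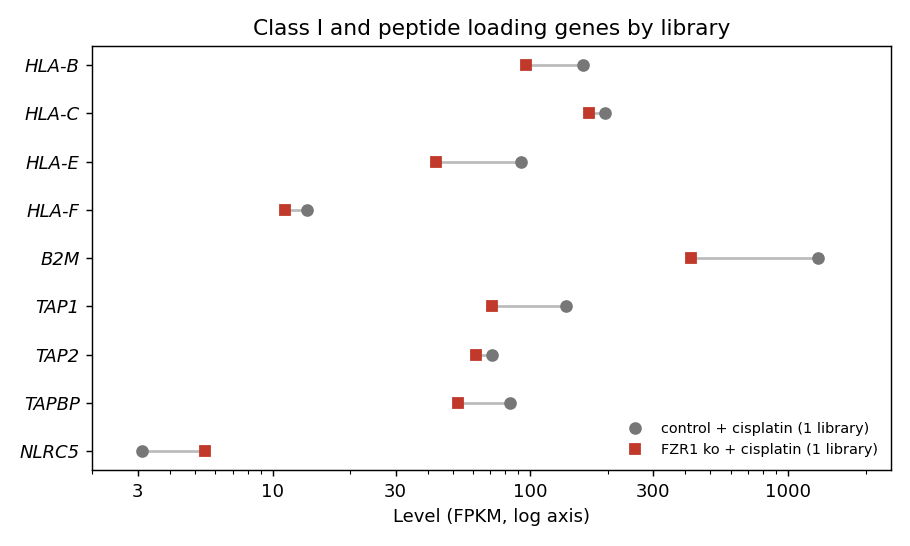
Level of each of the 9 genes in FPKM on a log axis, with a grey circle for the control library and a red square for the FZR1 ko library, both treated with cisplatin, 1 library each. The square lies to the left of the circle in 8 genes, with the widest gap in B2M (1309 to 422 FPKM), and to the right in NLRC5.

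B2M (Entrez gene 567, chromosome 15 from 44711517 to 44718145) encodes the light chain that every class I molecule shares. It had 1309 FPKM in control cells and 422 FPKM in FZR1 ko cells. The control level was 3.10 times that of FZR1 ko, with a log2 ratio of -1.63. Only 1.45% of the genes kept had a ratio as low. B2M ranked 27th by level among all genes in control and 163rd in FZR1 ko. Its promoter with ISRE and kappa-B letters is the third of those printed above.

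The heavy chains differed unequally. HLA-E (Entrez gene 3133, chromosome 6 from 30489509 to 30494194), a nonclassical chain that presents signal peptides of other class I chains to NK cells, had 91.7 FPKM in control cells and 43.2 FPKM in FZR1 ko cells. Its log2 ratio was -1.07, and 5.75% of the genes kept had a ratio as low. HLA-B (Entrez gene 3106, chromosome 6 from 31353875 to 31357179), a classical chain, had 159.8 FPKM in control cells and 96.5 FPKM in FZR1 ko cells, a log2 ratio of -0.72. The control level of HLA-B was 1.66 times that of FZR1 ko.

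HLA-C (Entrez gene 3107, chromosome 6 from 31268749 to 31272092), a classical chain read by receptors of NK cells as well, had the smaller difference, with 195 FPKM in control cells and 169 FPKM in FZR1 ko cells (log2 ratio -0.21). Of the genes kept 36.7% had a ratio as low, so HLA-C lay well within their middle range. HLA-F (Entrez gene 3134, chromosome 6 from 29723434 to 29738532), a nonclassical chain, had 13.7 FPKM in control cells and 11.1 FPKM in FZR1 ko cells (log2 ratio -0.27). The 4 heavy chains together had 461 FPKM in control cells and 320 FPKM in FZR1 ko cells, a control level 1.44 times that of FZR1 ko. The share of HLA-C in this sum was 42.4% in control and 52.8% in FZR1 ko, and that of HLA-E was 19.9% and 13.5%. The ratio of HLA-B to HLA-C was 0.818 in control and 0.572 in FZR1 ko. What set this pair apart was not tested.

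Heavy chain genes resemble each other, so reads could be assigned to the wrong copy. Among the main transcripts of the GENCODE 44 annotation, 0 of the 1437 stretches of 100 bases in HLA-B and 0 of the 1381 in HLA-F occurred in a transcript of another gene. In HLA-C 0.277% of such stretches did, and in HLA-E 0.612%. None was shared between the 9 genes. This holds for the reference alleles, and the alleles of the sequenced cells were not analysed here. A stretch counted only when all 100 bases were identical, so near copies with scattered differences also give 0. These counts thus do not show that reads of the heavy chains were told apart. Reads of an allele unlike the reference may have been lost or misplaced in both libraries, which was not tested. B2M shared 0 of its 844 stretches with any other gene.

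The ratio of B2M to the sum of the 4 heavy chains was 2.84 in control and 1.32 in FZR1 ko. This control ratio was 2.15 times that of FZR1 ko, with both levels measured per length. B2M made up 63.4% of the summed FPKM of the 9 genes in control and 45.3% in FZR1 ko. Without B2M the sum of the other 8 was 756 FPKM in control cells and 509.8 FPKM in FZR1 ko cells.

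The loading genes were also unequal. TAP1 (Entrez gene 6890, chromosome 6 from 32845209 to 32853704), a subunit of the peptide transporter, had 138 FPKM in control cells and 70.7 FPKM in FZR1 ko cells. Its log2 ratio was -0.95, just short of 2-fold, and 7.40% of the genes kept had a ratio as low. TAP2 (Entrez gene 6891, chromosome 6 from 32821831 to 32838739), the partner in the same transporter, had 71.1 FPKM in control cells and 61.8 FPKM in FZR1 ko cells (log2 ratio -0.20). The ratio of TAP1 to TAP2 was 1.94 in control and 1.14 in FZR1 ko. In the main TAP2 transcript 34.7% of the stretches of 100 bases were shared with 1 other annotated gene, so its level is less certain than that of TAP1, which shared 0 of 2586.

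TAPBP (Entrez gene 6892, chromosome 6 from 33299694 to 33314078), which encodes tapasin, had 83.1 FPKM in control cells and 52.2 FPKM in FZR1 ko cells (log2 ratio -0.66). Its difference was close to that of HLA-B. Both TAP2 and TAPBP held the ISRE letters, at 58 bases before the start site in TAP2 and at 20 and 14 bases in TAPBP. Genes with the ISRE letters thus ranged from -1.63 (B2M) to -0.20 (TAP2) in log2 ratio.

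NLRC5 (Entrez gene 84166, chromosome 16 from 56989557 to 57083520) had 3.11 FPKM in control cells and 5.45 FPKM in FZR1 ko cells, a log2 ratio of 0.65. Of the genes kept 15.6% had a ratio as high. The transactivator was thus higher in the library in which the other 8 genes were lower. Its level was the lowest of the 9 in both libraries, and the pseudocount pulls its ratio towards 0.

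**Figure D2:**
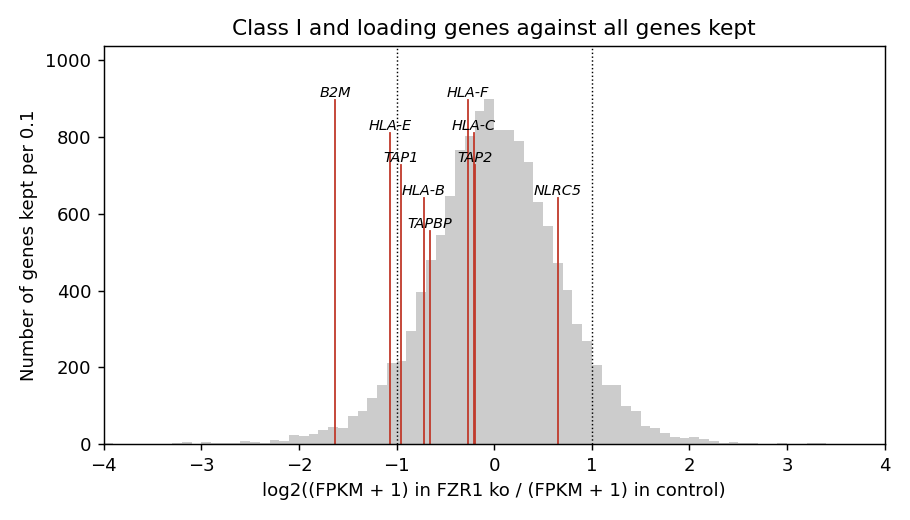
Histogram of the log2 ratio (FZR1 ko over control, FPKM + 1) of the 13554 genes kept, in steps of 0.1, with a red line at each of the 9 genes and dotted lines at the 2-fold threshold. B2M at -1.63 lies far in the lower tail, HLA-C, HLA-F and TAP2 lie near the centre, and NLRC5 at 0.65 lies on the upper side.

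The proteasome makes the peptides, and interferon exchanges 3 of its catalytic subunits, PSMB5, PSMB6 and PSMB7, for PSMB8, PSMB9 and PSMB10. The list of inducible proteasome genes had 6 genes kept, with a median log2 ratio of -0.28, 4 lower and 2 higher. At 2-fold 0 were lower and 0 higher, beside 6.72% and 6.78% of all genes kept. PSMB8 had 101 FPKM in control cells and 76.8 FPKM in FZR1 ko cells (-0.39). PSMB10 had 37.0 FPKM in control cells and 28.0 FPKM in FZR1 ko cells (-0.39). PSMB9 went the other way, with 18.0 FPKM in control cells and 31.4 FPKM in FZR1 ko cells (0.77).

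Read against the subunit that each replaces, the ratio of PSMB8 to PSMB5 was 0.532 in control and 0.457 in FZR1 ko. That of PSMB10 to PSMB7 was 0.166 and 0.0920, and that of PSMB9 to PSMB6 was 0.0814 and 0.169. The constitutive subunits were more abundant in both libraries. PSMB5 had 190 FPKM in control cells and 168 FPKM in FZR1 ko cells (-0.18), PSMB6 had 221 and 185 FPKM (-0.25), and PSMB7 had 223 and 305 FPKM (0.45). Of the activator PA28, PSME1 had 90.8 and 113 FPKM (0.32) and PSME2 had 193 and 149 FPKM (-0.38).

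**Figure D3:**
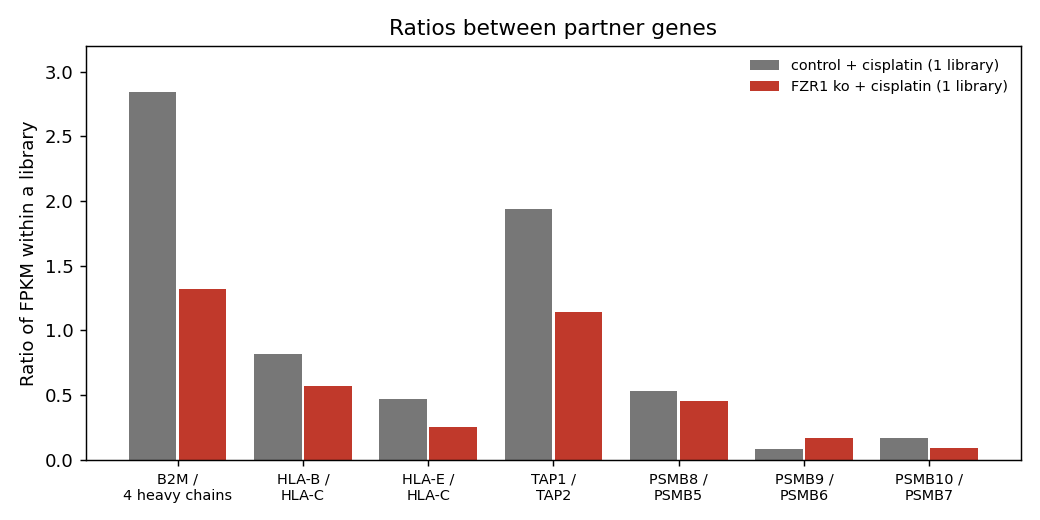
Ratios of FPKM between partner genes within a library, with grey bars for control and red bars for FZR1 ko, 1 library each and no error bars. B2M to the 4 heavy chains was 2.84 in control and 1.32 in FZR1 ko, TAP1 to TAP2 was 1.94 and 1.14, and PSMB9 to PSMB6 was the only ratio shown that was higher in FZR1 ko (0.0814 and 0.169).

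TAP1 and PSMB9 are neighbours that are transcribed away from each other. The start site of the TAP1 window printed and that of PSMB9 lie 488 bases apart, and the ISRE and kappa-B letters printed for TAP1 lie between them. TAP1 was lower in FZR1 ko (log2 ratio -0.95) and PSMB9 was higher (0.77). The ratio of TAP1 to PSMB9 was 7.65 in control and 2.25 in FZR1 ko, a control ratio 3.40 times that of FZR1 ko. The PSMB9 window as printed held a Y box and a CRE core site and no ISRE, GAS or kappa-B letters.

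Of the 9 genes 7 lie on chromosome 6 between HLA-F and TAPBP, from 29723434 to 33314078. In this stretch 103 protein-coding genes were kept, and FZR1 ko had the lower level in 70 and the higher in 32, with a median log2 ratio of -0.26. Of these, 12 (11.7%) were at least 2-fold lower and 1 (0.971%) was at least 2-fold higher, beside 5.68% and 6.39% of the 11548 protein-coding genes kept. Of those 48% were lower and 51.9% higher at all. The 96 genes other than the 7 had a median of -0.25, with 63 lower and 32 higher, and 11 at least 2-fold lower. Among these 11, RNF39, TRIM39-RPP21, ATP6V1G2, LY6G6C and MPIG6B were under 1 FPKM in FZR1 ko. They passed the filter only through the control library, where they were higher, so the count lower draws on them. The lower levels on this stretch thus also covered genes outside antigen presentation. IER3, an immediate early gene, had 431 FPKM in control cells and 119 FPKM in FZR1 ko cells (-1.85), BRD2, a bromodomain protein, had 304 and 132 FPKM (-1.20), and the cytokine TNF had 11.1 and 1.01 FPKM (-2.59). These 3 were named after their values were seen.

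**Figure D4:**
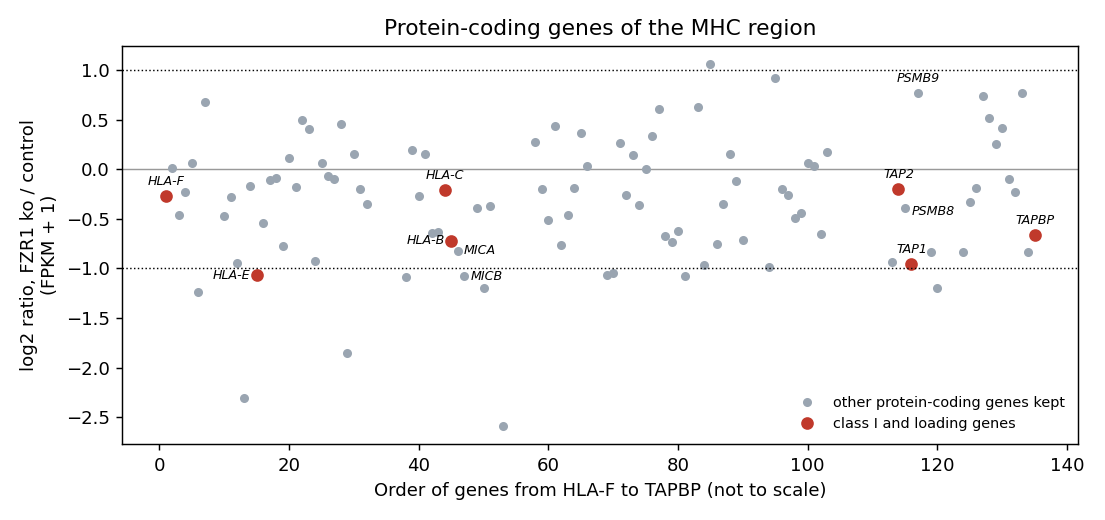
Log2 ratio (FZR1 ko over control, FPKM + 1) of the 103 protein-coding genes kept between HLA-F and TAPBP, in their order along chromosome 6 and not to scale, with the 7 class I and loading genes in red and the others in grey. Of the 103 points 70 lie below 0, 12 lie at or below -1 and 1 lies above 1, and TAP1 and PSMB9 stand side by side on opposite sides of 0.

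The chaperones and enzymes of the endoplasmic reticulum went both ways. Their list had 10 genes kept, a median log2 ratio of 0.0025, 5 lower and 5 higher. At 2-fold 0 were lower and 0 higher, beside 6.72% and 6.78% of all genes kept. Calreticulin (CALR) had 578 FPKM in control cells and 627 FPKM in FZR1 ko cells (0.12). Calnexin (CANX), which holds free heavy chains, had 182 and 203 FPKM (0.16). PDIA3, the disulfide isomerase bound to tapasin, had 159.8 and 105 FPKM (-0.60). HSPA5, the general chaperone BiP, had 203 and 166 FPKM (-0.28). Of the trimming peptidases, ERAP1 had 6.41 and 8.35 FPKM (0.34), and ERAP2 had 2.11 and 1.53 FPKM (-0.30).

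Cytosolic peptidases, which trim or destroy peptides before transport, had the highest median of the pathway lists. Over 8 genes kept it was 0.53, with 1 lower and 7 higher, beside 50.3% and 49.6% of all genes kept. At 2-fold 0 were lower and 0 higher, beside 6.72% and 6.78% of all genes kept. At 1.5-fold 3 were higher, beside 18% of all genes kept. THOP1, an oligopeptidase that degrades class I peptides, had 48.7 FPKM in control cells and 66.3 FPKM in FZR1 ko cells (0.44). NRDC, or nardilysin, had 47.3 and 57.6 FPKM (0.28), and LAP3, a leucine aminopeptidase, had 29.9 and 26.7 FPKM (-0.16).

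Factors that act on class I promoters went both ways. Of 16 genes 15 were kept, with a median log2 ratio of 0.13, 6 lower and 9 higher. At 2-fold 1 was lower and 0 were higher, beside 6.72% and 6.78% of all genes kept, so the count lower was at the background. The gene was IRF1, the interferon-induced factor that binds the ISRE, with 36.5 FPKM in control cells and 15.3 FPKM in FZR1 ko cells (-1.20). RELA, the NF-kB subunit that binds kappa-B sites, had 154 and 91.7 FPKM (-0.74), and IRF2, a second ISRE-binding factor, had 4.70 and 6.79 FPKM (0.45). USF2, which binds E boxes, had 43.7 and 47.9 FPKM (0.13). RFX5 and RFXANK, parts of the complex that NLRC5 joins, had 46.9 and 38.4 FPKM (-0.28) and 44.5 and 44.7 FPKM (0.0057). CIITA, the transactivator of class II genes, was at 0.21 and 0.30 FPKM.

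The interferon receptors and the JAK-STAT chain had a median of -0.16 across the 13 genes kept, of which 9 were lower and 4 were higher. At 2-fold 1 of the 13 was lower (6.72% of all genes kept) and 0 were higher (6.78%), which is near the background. The one lower was SOCS1, an interferon-induced inhibitor of JAK signalling, with 17.3 FPKM in control cells and 3.15 FPKM in FZR1 ko cells (-2.14). JAK1, a kinase shared by the receptors, had 14.4 and 24.9 FPKM (0.75), and STAT3, a transcription factor it activates, had 25.0 and 31.8 FPKM (0.34). TYK2, a kinase of the type I receptor, had 26.5 and 25.7 FPKM (-0.038). The rows of IFNG and IFNB1 held no value.

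Interferon-stimulated genes outside antigen presentation had no common direction. Of 28 genes 20 were kept, with a median log2 ratio of 0.12, 9 lower and 11 higher. At 2-fold 2 of the 20 were lower and 1 was higher, close to the 6.72% and 6.78% of all genes kept. IFITM1, a membrane protein that restricts virus entry, had 16.4 FPKM in control cells and 2.21 FPKM in FZR1 ko cells (-2.44), and IRF7, which drives type I interferon genes, had 21.2 and 8.24 FPKM (-1.27). IFI44 had 4.64 and 17.8 FPKM (1.73). The most abundant, IFITM3, had 426 and 383 FPKM (-0.15), BST2 had 229 and 256 FPKM (0.16), and ISG15 had 134 and 133 FPKM (-0.010).

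Class I-like molecules include the stress ligands that the NKG2D receptor of NK cells reads, and these ligands need neither B2M nor peptide. Of 14 genes of this kind and related folds 12 were kept, with a median log2 ratio of -0.53, 10 lower and 2 higher, where 50.3% of all genes kept were lower. At 2-fold 4 of the 12 were lower and 1 was higher, against 6.72% and 6.78% of all genes kept. These counts depend on the settings. With a pseudocount of 5 FPKM 2 were lower and 0 higher. At 10 FPKM or more in both libraries 1 was lower and 0 were higher. ULBP2 had 28.6 FPKM in control cells and 6.11 FPKM in FZR1 ko cells (-2.06), RAET1L had 11.9 and 2.46 FPKM (-1.89), and ULBP3 had 11.9 and 3.89 FPKM (-1.40). ULBP2 and RAET1L are close copies, as are MICA and MICB, so the split of their reads is uncertain.

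MICB, also a ligand of NKG2D, had 62.0 FPKM in control cells and 28.8 FPKM in FZR1 ko cells (-1.08), and MICA had 71.0 and 39.7 FPKM (-0.82). PROCR, a class I-like receptor of protein C, had 46.7 and 43.5 FPKM (-0.10). HFE, a class I-like chain that pairs with B2M in iron sensing, was the gene past 2-fold higher, with 4.34 FPKM in control cells and 9.77 FPKM in FZR1 ko cells (1.01).

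Genes that remove or break down class I chains had a median of -0.28 across the 9 genes kept, of which 6 were lower and 3 were higher. At 2-fold 1 of the 9 was lower and 0 were higher, with 6.72% and 6.78% over all genes kept, and 1 gene is too few to set the list apart. This was IRGQ, which directs misfolded class I to autophagy, with 17.2 FPKM in control cells and 5.35 FPKM in FZR1 ko cells (-1.52). HM13, the signal peptide peptidase that releases the peptides HLA-E presents, had 130 and 137 FPKM (0.076). UBE2J2, a ubiquitin-conjugating enzyme of the endoplasmic reticulum, had 44.8 and 42.0 FPKM (-0.090), and DERL1, of the retrotranslocation channel, had 35.6 and 22.6 FPKM (-0.63).

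Leukocytes carry more class I than epithelial cells, so their markers are given beside these levels. Of 7 markers 6 had a value, and together they had 1.61 FPKM in control cells and 0.35 FPKM in FZR1 ko cells. The defining marker PTPRC was at 0.08 and 0.09 FPKM, and CD3E and MS4A1 were listed at 0 in both libraries. CD14, a monocyte marker, had 1.05 and 0.11 FPKM, and NKG7, of cytotoxic lymphocytes, had 0.44 and 0.14 FPKM. Fibroblast markers together had 20.3 FPKM in control cells and 27.8 FPKM in FZR1 ko cells, of which LUM made up 12.0 and 17.8 FPKM, COL1A1 5.13 and 6.25 FPKM and DCN 2.49 and 2.04 FPKM, while COL1A2 was listed at 0 in both libraries.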

How the data were processed

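RNAseq covered 1 control library and 1 FZR1 ko library, both after cisplatin. Reads were mapped by the authors with Bowtie2 to hg38 transcripts and quantified with RSEM, and the deposited FPKM values, 1 per Entrez gene ID, have 2 decimals. The processing notes of the submitters name Bowtie2 2.2.5, a version other than that in the methods, and also Trimmomatic 0.36 and HISAT2 2.1.0. The annotation release and any filter are not given in the sources used here. FPKM holds no read numbers, so depth is unknown and no interval is given.

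Of 24663 rows 1630 held no value, and 22925 (99.5%) of the 23033 remaining IDs matched a RefSeq symbol of GRCh38.p14, the same build. Summed FPKM was 502589 in control and 500488 in FZR1 ko. A log2 ratio was computed with a pseudocount of 1 FPKM over genes of at least 1 FPKM in at least 1 library, and genes past 2-fold were counted. No test was run. The computation was tested on simulated data. The genes and lists were chosen with earlier results of these data known. Named were all 9 genes, FZR1, genes of each list past 2-fold, its 3 genes of highest mean FPKM, and a fixed set of regulators and enzymes. Some genes were left out of the lists and are not reported here. Lists are described by their genes kept. Alternatives were other pseudocounts, filters, scalings and thresholds. Motif letters were searched on both strands in 250 bases before each RefSeq start site. Stretches of 100 bases were compared with all GENCODE 44 transcripts. Python 3.11.15, numpy 2.4.6, pandas 2.3.3 and matplotlib 3.10.9 were used.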

Additional observations from a re-analysis of the deposited data

How the results depend on the processing

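No paired analysis was possible because with 1 library on each side nothing could be paired or tested, and no replicate could be left out. The log2 ratio of every one of the 9 class I and loading genes kept its sign in all 71 values under the alternatives in which the gene was kept. For a change of pseudocount or filter this was fixed in advance, since neither can turn the sign of a gene. Centring and rescaling could, but they moved B2M only from -1.629 to -1.624 and -1.623. The kept signs are therefore no check of the differences. B2M ranged from -1.63 to -1.62, HLA-E from -1.08 to -1.01, TAP1 from -0.96 to -0.91 and NLRC5 from 0.37 to 0.79. Of 502 values under alternatives 452 stayed close to the reported one and 50 moved further, where close is a count within 1.5 times, or a log2 ratio whose change, turned back into a fold, is at most 1.5. Among the list medians 3 values changed sign, namely the loading chaperones (0.0025 to -0.022 with a pseudocount of 0.1 FPKM) and, without a filter, the interferon-stimulated genes (0.12 to -0.0051) and luminal markers (0.27 to -0.032). A minimum of 10 FPKM in each library, and protein-coding genes only, were chosen after the data were seen. A larger threshold or pseudocount passes fewer genes by its construction.

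With a pseudocount of 0.1 FPKM 1358 genes were at least 2-fold lower and 1460 higher, as were 1 promoter factor and 2 interferon-stimulated genes, and 2 class II genes were lower. With one of 5 FPKM 270 genes were lower and 183 higher, 2 class I-like genes were lower and 0 higher, and 1 interferon-stimulated gene was lower. Without a filter the class II median was -0.053.

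At 1.5-fold 2387 genes were lower (17.6% of all genes kept) and 2440 higher (18%), and of the 9 genes 5 were lower and 1 was higher. Of 10 loading chaperones 1 was lower and 1 higher. Of 6 inducible proteasome genes 1 was higher, and of 8 peptidases 3 were higher. Of 15 promoter factors 4 were lower and 2 higher, and of 13 JAK-STAT genes 2 were higher. Of 9 removal genes 4 were lower and 1 higher, and of 3 class II genes 2 were lower. Of 20 interferon-stimulated genes 4 were higher, and of 5 checkpoint ligands 1 was lower. At 4-fold 89 genes were lower and 61 higher, and of the 9 genes 0 were lower. There 0 promoter factors and 0 removal genes were lower, 1 class I-like gene was lower and 0 higher, and 1 interferon-stimulated gene was lower and 0 higher. Above that minimum of 10 FPKM 252 were lower and 144 higher, with 0 JAK-STAT genes and 0 removal genes lower, 1 class I-like gene lower and 0 higher, and 0 interferon-stimulated genes lower or higher. Of the class II genes none was left there.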

Other observations

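MHC class II genes, which professional antigen presenting cells use for peptides from outside the cell, were almost without signal. Of 13 genes 12 had a value, 9 of these were under 1 FPKM in both libraries and 5 were listed at 0 in both, among them HLA-DRA. CD74, the invariant chain, had 0.12 FPKM in control cells and 0.04 FPKM in FZR1 ko cells. The highest were CTSS, a lysosomal protease, with 5.85 and 4.68 FPKM, HLA-DMA, which loads class II peptides, with 2.75 and 1.11 FPKM, and HLA-DOB with 1.39 and 0.25 FPKM.

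Ligands of inhibitory or adhesive receptors on lymphocytes and macrophages went both ways. Of 8 genes 5 were kept, with a median log2 ratio of -0.050, 3 lower and 2 higher. At 2-fold 0 were lower and 0 higher, beside 6.72% and 6.78% of all genes kept. CD274, which encodes PD-L1, had 2.72 FPKM in control cells and 3.73 FPKM in FZR1 ko cells (0.35). PVR, a ligand of DNAM-1 and TIGIT, had 43.4 and 28.0 FPKM (-0.61), CD276 had 34.9 and 33.4 FPKM (-0.062), and CD47, the signal that restrains phagocytes, had 12.4 and 13.1 FPKM (0.069).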
